A study of Mus musculus with 16 samples.

Results

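Liver of fasted Klf15-knockout mice was compared with liver of fasted wild-type mice. The comparison used all arrays whose sample titles name liver, 8 of the 16 arrays of the series: wild-type liver (WT 1 to WT 4, n = 4) and knockout liver (KO 5 to KO 8, n = 4). Both groups came from female mice aged 4 to 5 months that had gone 18 h without food, so sex, age range and fasting were shared and a fed state was not measured. The controls were labelled WT, and the labels call the knockouts KLF15-null without naming a Cre driver, a strain background or the deleted exons. The other 8 arrays held quadriceps muscle and entered only where stated. Total RNA of flash frozen tissue was hybridised to Affymetrix arrays, 1 array per sample. The samples are numbered, but the labels do not call each one an animal of its own, and the p-values therefore reflect only how much these samples varied.

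Klf15 encodes a Kruppel-like transcription factor, one of a family with zinc fingers that bind CACCC and GC-rich boxes in gene control regions. In liver it is known as a factor that rises on fasting and that controls genes for the breakdown of amino acids, whose carbon skeletons feed glucose production. In muscle and heart the same factor is known for its part in lipid and branched-chain amino acid use.

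Liver identity was checked against defining markers. The hepatocyte markers Alb, Ttr and Apoa1, all abundant plasma proteins, were among the brightest signals. Alb read 8736 ± 435 in wild type and 8468 ± 332 in knockout (mean ± SD, n = 4), Ttr 8521 ± 287 in wild type and 8198 ± 272 in knockout, and Apoa1 9331 ± 396 in wild type and 9315 ± 220.4 in knockout. None of the 3 passed the test described below, and their log2 fold changes were -0.044, -0.056 and -0.0018. Of the 12 tested markers of the hepatocyte list, 10 did not pass and 2 (16.7%, beside 5.24% of all genes tested) were lower: Tat (-0.67, SE 0.11) and Cyp2e1 (-0.24, SE 0.06), the latter call lost without WT 2, KO 7 or KO 8 and with all 16 arrays in 1 fit. The log2 fold change was negative for 10 of the 12. The 11 skeletal muscle markers together summed to between 75.8 and 127 on wild-type and between 94.1 and 155 on knockout arrays, and 0 of them reached the level at which genes were tested. The median signal of the 8 arrays lay between 41.6 and 48.9, and Spearman correlations between arrays lay between 0.946 and 0.960. The Gapdh 3'/5' signal ratio, a sign of RNA quality, was 0.710 to 0.804 in wild type and 0.739 to 0.765 in knockout. The beta-actin 3'/5' ratio was higher, at 2.17 to 2.55 in wild type and 1.93 to 2.52 in knockout. The wild-type set was washed on fluidics station 2 and the knockout set on station 1, and the effects of genotype and of station cannot be told apart. The number of arrays limits the precision of every value.

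Klf15 was read first. Its signal was 1016, 1221, 1279.5 and 855 on WT 1 to 4 and 200.4, 155, 149 and 158 on KO 5 to 8, arrays being given in this order throughout. The highest knockout array lay far below the lowest wild-type array, and the mean signal was 6.60-fold lower (log2 fold change -2.60, SE 0.14, limma adjusted p = 9.87e-08). Fold changes here and below are differences of knockout from wild type in log2(signal + 16), which understates changes of dim genes, and the adjusted p comes from limma with Benjamini-Hochberg adjustment over all 7989 genes tested. The sources used here do not say whether the probes fall in the deleted stretch, and no meaning was read into the signal left in knockout liver.

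Of the 7989 genes, 388 (4.86%) were higher and 419 (5.24%) were lower in knockout liver at an adjusted p below 0.05 (limma), together 10.1%. The count of higher genes was 236 without WT 2, 245 without KO 5 and 236 without KO 7, and the fit of all 16 arrays called 110 higher and 218 lower. The lower genes reached further from 0. At least 2-fold changes were found for 105 lower genes (1.31% of those tested) and for 37 higher genes (0.463%), together 1.78%. A log2 fold change of -2 or beyond occurred for 21 lower genes, and one of 2 or beyond for 2 higher genes. Among the smaller changes, 281 of the 807 called genes moved by less than 0.5 on the log2 scale. The median log2 fold change of all genes tested was 0.03. Knockout and wild-type arrays did not overlap for 1270 genes (15.9% of those tested), with knockout above for 8.4% and below for 7.5%, and 737 of the 807 called genes were among these. The called share per chromosome ran from 7.98% to 13.5% over 20 chromosomes.

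**Figure D1:**
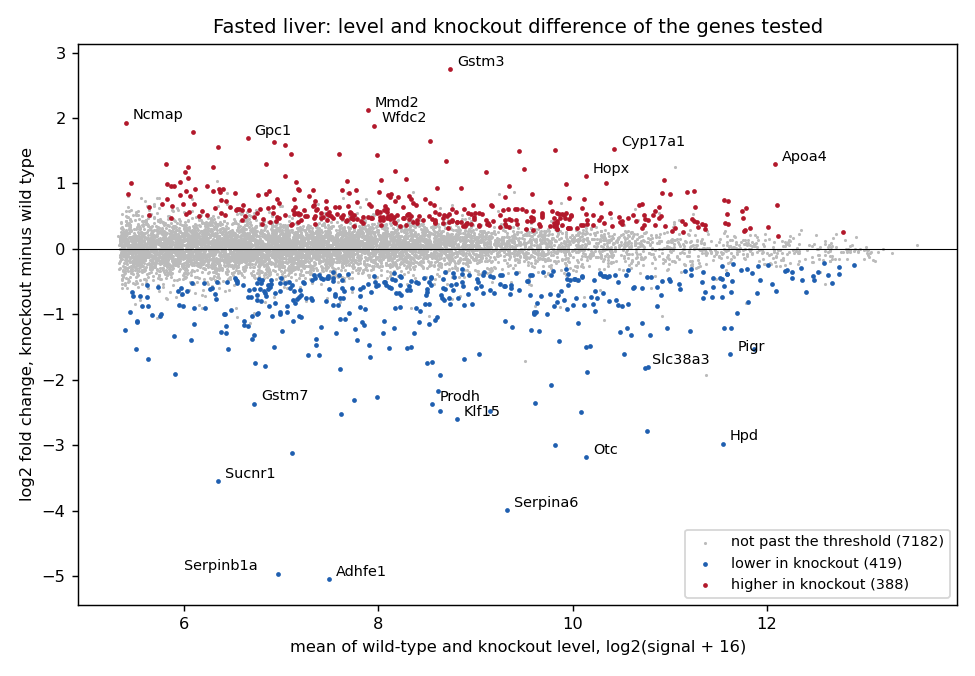
Log2 fold change (knockout minus wild type, y axis) of each gene tested against the mean of its wild-type and knockout level on the log2(signal + 16) scale (x axis). The 419 lower genes reach further from 0 than the 388 higher genes, and Adhfe1, Serpinb1a and Serpina6 lie lowest.

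The steepest falls belonged to genes of varied function. Adhfe1, a mitochondrial enzyme that oxidises 4-hydroxybutyrate, had signals of 1118, 1031, 766 and 1073 in wild type and 11.1, 35.6, 4.4 and 13.4 in knockout (log2 fold change -5.05, SE 0.23, limma adjusted p = 4.43e-08). Serpinb1a, an intracellular protease inhibitor, had 798, 457, 1088 and 465 in wild type and 2.4, 5.8, 14 and 1.7 in knockout (log2 fold change -4.97, SE 0.26, limma adjusted p = 9.66e-08). Sucnr1, the receptor for extracellular succinate, had 347, 229, 289 and 192 in wild type and 3.6, 13.3, 12.6 and 2.2 in knockout (log2 fold change -3.55, SE 0.21, limma adjusted p = 2.39e-07). In all 3 genes the knockout mean was under 24.0, the mean signal from which genes were tested, so the exact size of these falls is uncertain. Every wild-type array lay well above that level. Serpina6, which encodes corticosteroid-binding globulin, read 2253, 2524, 2227 and 2426 in wild type and 133, 322, 54.4 and 121 in knockout (log2 fold change -4.00, SE 0.33, limma adjusted p = 7.88e-06). Its wild-type arrays were close together, whereas KO 6 was the brightest and KO 7 the dimmest knockout array.

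Otc, the mitochondrial urea cycle enzyme that joins ornithine and carbamoyl phosphate, had signals of 3367, 3085, 3579.7 and 3392 in wild type and 422, 419.9, 306 and 292 in knockout (log2 fold change -3.18, SE 0.12, limma adjusted p = 1.95e-08). Both groups were tight, and 2 other bright probe sets for the gene moved the same way. Prodh, the first enzyme of proline breakdown, read 846, 871, 853 and 788 in wild type and 142, 152, 133 and 171 in knockout (log2 fold change -2.38, SE 0.10, limma adjusted p = 3.08e-08). For Aadat, an aminotransferase of lysine and kynurenine, the signals were 842, 995, 968 and 855 and 215, 136, 134 and 128 (log2 fold change -2.48, SE 0.14, limma adjusted p = 2.39e-07). Sardh, which turns sarcosine into glycine, read 1751, 1559, 1971 and 1711 and 390.2, 360.1, 241 and 331 (log2 fold change -2.36, SE 0.13, limma adjusted p = 2.18e-07). In each of these 4 genes the dimmest wild-type array was more than 3 times as bright as the brightest knockout array. Ivd, the isovaleryl-CoA dehydrogenase of leucine breakdown, showed 508, 522, 651 and 483 and 105, 87.7, 109 and 96.7 (log2 fold change -2.27, SE 0.12, limma adjusted p = 9.56e-08). Its 4 knockout arrays lay close together, below all wild-type arrays. Hpd, the dioxygenase of tyrosine breakdown, was uniform in wild type at 7818, 7895, 7951 and 7693 and varied in knockout at 924, 1819.9, 406 and 1327 (log2 fold change -2.98, SE 0.32, limma adjusted p = 6.75e-05). Abat, which breaks down the transmitter GABA, gave 1665, 1545, 2232 and 1533 and 369, 617, 222 and 484 (log2 fold change -2.07, SE 0.24, limma adjusted p = 0.000122). For Hpd and Abat alike KO 6 was the brightest and KO 7 the dimmest knockout array, and neither reached a wild-type array.

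**Figure D2:**
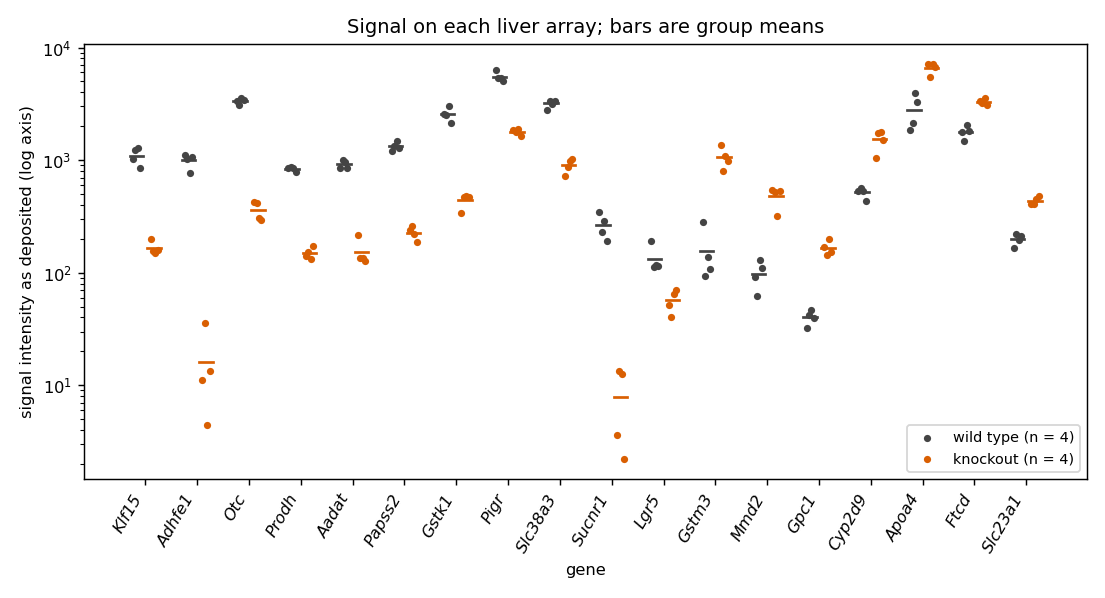
Signal intensity as deposited (y axis, log scale) on each of the 4 wild-type and 4 knockout liver arrays for 18 genes (x axis), with the group mean as a bar. The first 11 genes are lower and the last 7 higher in knockout. The groups do not overlap for any of the 18, most of which were picked among genes without overlap.

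The promoters of 4 of these enzymes of nitrogen and amino acid metabolism are shown because their falls were large in every knockout array and Kruppel-like factors are known to bind CACCC boxes. Each is the RefSeq promoter window of the GRCm38.p6 build, 250 bases before to 50 bases after the annotated start, written 5′ to 3′ on the gene's strand: Otc (chrX:10252055-10252354, plus strand), Prodh (chr16:18089141-18089440, minus strand), Ivd (chr2:118861744-118862043, plus strand) and Sardh (chr2:27247254-27247553, minus strand). Capitals mark CACCC and its reverse complement GGGTG. The GC box GGGCGG, with its reverse complement CCGCCC, was searched as well and had 0 matches in these 4 windows.
Otc: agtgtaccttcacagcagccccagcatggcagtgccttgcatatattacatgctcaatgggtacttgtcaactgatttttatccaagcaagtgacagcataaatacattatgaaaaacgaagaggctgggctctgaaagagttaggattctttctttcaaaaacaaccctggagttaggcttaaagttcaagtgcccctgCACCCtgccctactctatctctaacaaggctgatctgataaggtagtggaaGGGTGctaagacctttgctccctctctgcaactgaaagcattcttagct
Prodh: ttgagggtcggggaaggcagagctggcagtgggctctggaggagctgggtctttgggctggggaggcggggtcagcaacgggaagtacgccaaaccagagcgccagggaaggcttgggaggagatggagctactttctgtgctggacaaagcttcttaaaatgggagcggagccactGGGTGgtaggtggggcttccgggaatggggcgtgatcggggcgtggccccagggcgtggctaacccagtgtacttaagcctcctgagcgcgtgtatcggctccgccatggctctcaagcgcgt
Ivd: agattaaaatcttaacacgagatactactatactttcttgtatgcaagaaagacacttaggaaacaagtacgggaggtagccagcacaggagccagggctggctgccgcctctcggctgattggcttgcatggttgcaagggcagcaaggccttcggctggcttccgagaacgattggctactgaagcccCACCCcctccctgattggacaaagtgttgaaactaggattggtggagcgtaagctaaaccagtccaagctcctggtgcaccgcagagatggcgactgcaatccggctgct
Sardh: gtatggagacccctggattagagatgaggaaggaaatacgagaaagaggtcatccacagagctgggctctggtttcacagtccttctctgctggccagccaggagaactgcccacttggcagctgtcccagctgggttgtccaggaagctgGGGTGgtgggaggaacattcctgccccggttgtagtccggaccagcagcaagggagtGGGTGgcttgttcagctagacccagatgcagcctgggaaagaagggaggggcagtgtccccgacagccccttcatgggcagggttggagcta
The Otc and Sardh windows held 2 CACCC matches each, and the Prodh and Ivd windows 1 each. The table of promoters held 8452 windows for 6525 of the genes tested, and CACCC on either strand was in 62.5% of them. It was in 70.2% of the 426 windows of genes lower in knockout and in 61.6% of the 398 windows of genes higher in knockout. Among the 24 windows (21 genes) given for the 30 largest falls the share was 83.3%. Among the 29 (22 genes) given for the 30 largest rises it was 58.6%. GGGTGG, which contains GGGTG, was in 36.3% of all windows, 44.1% of those of lower genes and 31.4% of those of higher genes. GGGTGTG, which also contains GGGTG, was in 8.32%, 11.3% and 7.79%. GGGCGG was in 62.1%, 59.2% and 60.3%. In the windows of the 30 largest falls and rises, GGGTGG was in 50% and 37.9%, and GGGCGG in 50% and 48.3%. GGGTGTG was in 16.7% and 13.8% of these, 4 windows each, both above its share of all windows. These shares are descriptions without a test, and a match of letters is not a binding site.

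Further large falls included enzymes of conjugation, fatty acid elongation and steroid metabolism. Gstk1, a glutathione transferase of mitochondria and peroxisomes, had signals of 2582, 2540.4, 3032 and 2128 in wild type and 342, 470, 481 and 474 in knockout (log2 fold change -2.50, SE 0.13, limma adjusted p = 9.56e-08). Papss2, which makes the sulfate donor for sulfation reactions, had 1193, 1326, 1483 and 1292 and 238, 262, 219 and 186 (log2 fold change -2.47, SE 0.11, limma adjusted p = 4.43e-08). Cyp2c23, an epoxygenase of arachidonic acid, had 1902, 1959, 2646 and 2074 and 386, 589.8, 767 and 579.5 (log2 fold change -1.88, SE 0.17, limma adjusted p = 1.67e-05). No knockout array was as bright as any wild-type array in the 3 genes. Elovl3, an elongase of very long fatty acids, had a log2 fold change of -1.80, SE 0.19, and Cyp7b1, the oxysterol hydroxylase, had a log2 fold change of -1.73, SE 0.22. Slc38a3, a sodium-coupled glutamine transporter of the plasma membrane, read 2809.7, 3373, 3180.2 and 3369 in wild type and 724, 869, 981 and 1021 in knockout (log2 fold change -1.81, SE 0.11, limma adjusted p = 2.75e-07). The binding protein gene Igfbp2 read 3321, 2793, 3263 and 3080.3 in wild type and 609.9, 717, 1746 and 779.8 in knockout (log2 fold change -1.80, SE 0.24, limma adjusted p = 0.000442). KO 7 was more than 2 times as bright as the other knockout arrays for Igfbp2, and below every wild-type array. Hspa1b, an inducible heat shock protein, read 572, 1039, 537 and 438 in wild type and 242, 251, 119 and 119.9 in knockout (log2 fold change -1.74, SE 0.28, limma adjusted p = 0.00141). KO 7 and KO 8 were the dimmest arrays for Hspa1b and WT 2 the brightest. Rgs16, a regulator that shortens G protein signals, read 159.9, 359.7, 637 and 452 in wild type and 43.1, 45.8, 18.6 and 12.2 in knockout (log2 fold change -3.12, SE 0.35, limma adjusted p = 0.000105). Tmem98, a membrane protein, and Ropn1l, known from sperm flagella, fell too, with log2 fold changes of -1.83 and -1.91.

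The largest rises were likewise spread over different functions. Gstm3, a glutathione transferase, had signals of 279.6, 94.3, 138 and 107 in wild type and 1372, 801, 1080 and 984 in knockout (log2 fold change 2.74, SE 0.26, limma adjusted p = 2.31e-05). Mmd2, a membrane protein of the progestin and adipoQ receptor family, had 91.7, 62.2, 128 and 111 and 539, 521, 318 and 535 (log2 fold change 2.12, SE 0.20, limma adjusted p = 2.46e-05). Wfdc2, a small secreted protein with protease inhibitor domains, had 160.2, 108, 95.6 and 80.7 and 625, 647, 259.6 and 357 (log2 fold change 1.88, SE 0.26, limma adjusted p = 0.000588). The groups did not overlap for these genes, and KO 7 was the dimmest knockout array for Mmd2 and Wfdc2. Gpc1, a heparan sulfate proteoglycan of the cell surface, read 32.5, 41.9, 46.5 and 39.7 in wild type and 168, 144, 198 and 152 in knockout (log2 fold change 1.69, SE 0.13, limma adjusted p = 5.37e-06). Tubb2a, a beta tubulin, read 678, 368, 359 and 229.8 and 1156, 743, 1445 and 1170.4 (log2 fold change 1.49, SE 0.26, limma adjusted p = 0.0029). Cdh1, the E-cadherin of cell contacts, read 48.7, 26.4, 83.1 and 46.9 and 150.2, 120.3, 386 and 161 (log2 fold change 1.64, SE 0.31, limma adjusted p = 0.00465). For Cdh1, KO 7 was more than 2 times as bright as the other knockout arrays. Lamb3, a laminin chain of the basement membrane, Atp1b1, a subunit of the sodium pump, Eppk1, a cytoskeletal linker, and Hopx, a homeodomain-only protein, rose by 1.45, 1.18, 1.12 and 1.11 on the log2 scale.

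Other rises included genes that were dim in wild type. Where the wild-type mean was below 24.0, as for Asns and Ncmap, the size of the rise is uncertain. Asns, the asparagine synthetase, read 21.9, 11.1, 21.4 and 24.8 in wild type and 51.6, 95.8, 173 and 142 in knockout (log2 fold change 1.79, SE 0.27, limma adjusted p = 0.00101). Ncmap, a myelin-associated protein, read 2.8, 3.3, 8.2 and 8 and 66.7, 92.6, 58.6 and 50 (log2 fold change 1.93, SE 0.19, limma adjusted p = 3.67e-05). Both went from near background to a clear signal on all knockout arrays. Fkbp11, a prolyl isomerase of the endoplasmic reticulum, read 45.6, 28.8, 36.4 and 18.6 in wild type and 124, 130.3, 124 and 114 in knockout (log2 fold change 1.55, SE 0.17, limma adjusted p = 6.84e-05). Pla2g7, a secreted phospholipase that breaks down platelet-activating factor, and Aqp4, a water channel, rose by 1.26, SE 0.22 and 1.17, SE 0.22. Npnt, an extracellular matrix protein, and Pcp4l1, a calmodulin-binding type protein, rose by 1.09, SE 0.32 and 1.25, SE 0.15, and the call of Npnt was lost without WT 2, WT 3, WT 4, KO 5, KO 7 or KO 8. The cell cycle inhibitor gene Cdkn1a, or p21, had a log2 fold change of 1.05, SE 0.28, with overlapping groups and a call lost without WT 2, WT 3, WT 4, KO 5, KO 7 or KO 8.

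Among secreted and nuclear factors, Cxcl13, a chemokine that attracts B cells, read 89.5, 139, 43.2 and 140.2 in wild type and 250, 313, 449.5 and 190.2 in knockout (log2 fold change 1.45, SE 0.30, limma adjusted p = 0.00819). The dominant-negative helix-loop-helix factor gene Id3 read 231, 341, 175 and 228 in wild type and 662, 518, 985 and 446 in knockout (log2 fold change 1.34, SE 0.23, limma adjusted p = 0.0023). KO 7 was the brightest array for both, and the groups did not overlap. Apoa4, an apolipoprotein of triglyceride-rich particles, read 1862, 2131, 3914 and 3290.1 in wild type and 7148, 5479, 7172 and 6694 in knockout (log2 fold change 1.29, SE 0.19, limma adjusted p = 0.000924). Wild-type arrays for Apoa4 fell into a dimmer pair, WT 1 and WT 2, and a brighter pair, both below KO 6. Slc23a1, a vitamin C transporter, read 167, 223, 195 and 213 in wild type and 408, 408, 451 and 481 in knockout (log2 fold change 1.08, SE 0.11, limma adjusted p = 5.18e-05). Tomm40l, related to the import pore of mitochondria, read 59.1, 65.8, 47.8 and 57.2 in wild type and 167, 179.8, 158 and 150.5 in knockout (log2 fold change 1.29, SE 0.12, limma adjusted p = 1.84e-05). The groups were narrow and separate for both genes. Kpnb1, the nuclear import receptor importin beta, rose by 1.44, SE 0.19, but 1 of its 3 other bright probe sets had the opposite sign. The long noncoding RNA Neat1, of nuclear paraspeckles, rose by 1.01, SE 0.19.

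Many genes of amino acid breakdown fell. Among 46 tested genes listed for it, 21 were lower, 5 higher (3 without WT 2, 2 with all 16 arrays in 1 fit) and 20 did not pass, with a median log2 fold change of -0.20. Of 24 tested members of the branched-chain list, whose lower genes are all different, 15 were lower and 9 did not pass, with a median of -0.58. These shares of 45.7% and 62.5% lower stand beside the 5.24% of all genes tested. Both lists were chosen with earlier results of these data known.

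Genes for all 4 tested steps of lysine breakdown were lower. Aass, which begins the saccharopine route, had signals of 2364, 2079.5, 2612 and 2092 in wild type and 1568, 1468, 1406 and 1599 in knockout (log2 fold change -0.59, SE 0.09, limma adjusted p = 0.000971). Aldh7a1, the next dehydrogenase, had 2610.4, 2384, 2856 and 2378 and 807, 858, 826 and 818 (log2 fold change -1.61, SE 0.08, limma adjusted p = 9.25e-08). Gcdh, the glutaryl-CoA dehydrogenase, had 1573, 1370, 1585 and 1419.5 and 766, 798, 765 and 916 (log2 fold change -0.86, SE 0.09, limma adjusted p = 5.18e-05), and Aadat, given above, lies between them. The 4 knockout arrays lay below the 4 wild-type arrays for all of these genes. Both enzymes of proline breakdown were lower. Beside Prodh, the pyrroline-carboxylate dehydrogenase gene Aldh4a1 fell from 666, 678, 666 and 598 to 432, 368, 305 and 332 (log2 fold change -0.84, SE 0.11, limma adjusted p = 0.000406).

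In tyrosine breakdown, the middle enzyme went against the others. Tat, Hpd, Gstz1 and Fah were lower (-0.67, -2.98, -1.32 and -1.20), while Hgd, the homogentisate dioxygenase between Hpd and Gstz1, was higher (0.33, SE 0.08). The call for Hgd was lost without WT 2, WT 4, KO 6 or KO 7. Fah, which cleaves fumarylacetoacetate, had signals of 4109, 4562, 4895 and 4651 in wild type and 2038, 1958, 1908 and 1953 in knockout (log2 fold change -1.20, SE 0.07, limma adjusted p = 2.39e-07). Knockout arrays for Fah lay within 1908 and 2038, below every wild-type array. In the kynurenine route of tryptophan, Tdo2 and Afmid were lower (-1.52 and -0.99), Kmo was higher (0.42) while Haao had -0.22 and did not pass (adjusted p = 0.0969, limma). The call was lost without WT 1 for Afmid and without WT 2 or KO 8 for Kmo. Tdo2, the first and rate-limiting enzyme, read 6475, 6510, 6066 and 6093 in wild type and 2297, 1873, 2628 and 1980.4 in knockout (log2 fold change -1.52, SE 0.10, limma adjusted p = 4.58e-07).

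In histidine breakdown no tested gene was lower. Hal, Uroc1 and Amdhd1, the first 3 enzymes, had log2 fold changes of 0.22, 0.37 and 0.32, none past the threshold (adjusted p = 0.264, 0.0723 and 0.122, limma). Ftcd, the last enzyme, which passes a one-carbon unit to folate, read 1763, 1478, 2066 and 1820.4 in wild type and 3374, 3192, 3569 and 3073 in knockout (log2 fold change 0.89, SE 0.10, limma adjusted p = 6.93e-05). The dimmest knockout array for Ftcd was brighter than the brightest wild-type array. In sulphur amino acid breakdown, Cth, which makes cysteine, Cdo1, which oxidises it, and Suox, the sulfite oxidase, were lower (-0.81, -0.32 and -0.83). Csad, of taurine synthesis, had 0.85 with an adjusted p = 0.176 (limma) and did not pass. Suox read 1085, 944, 1296 and 866 in wild type and 694, 606, 525 and 497 in knockout.

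In branched-chain breakdown, genes of the shared complex and of each branch were lower. The subunit genes Dbt and Bckdhb of the ketoacid dehydrogenase had log2 fold changes of -1.28, SE 0.12 and -1.25, SE 0.10. Dbt read 401, 382, 458 and 347 in wild type and 143, 178, 141 and 153 in knockout. The kinase that switches the complex off, Bckdk, had 0.11 (adjusted p = 0.763, limma), and the transaminase Bcat2 had -0.064 at a level near the filter signal (adjusted p = 0.916, limma), and neither passed. In the leucine branch both subunits of methylcrotonyl-CoA carboxylase fell, with log2 fold changes of -0.75, SE 0.13 for Mccc1 and -0.93, SE 0.16 for Mccc2. In the isoleucine branch, Acadsb, a short branched-chain dehydrogenase, read 550.2, 522, 667 and 439 in wild type and 264, 266, 231 and 221 in knockout (log2 fold change -1.09, SE 0.13, limma adjusted p = 0.000134). In the valine branch Hibadh (-0.51) and Aldh6a1 (-1.27) fell, while Acad8 (-0.07) and Hibch (-0.22) did not pass. Both subunits of propionyl-CoA carboxylase and the mutase that follows were lower, with Pcca at -0.86, Pccb at -0.59 and Mmut at -1.10. Mmab, which makes the cobalamin cofactor of that mutase, was lower (-0.72), with a knockout mean below the filter signal. The call for Mmab was lost without WT 2, WT 3, WT 4, KO 5, KO 6 or KO 8.

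**Figure D3:**
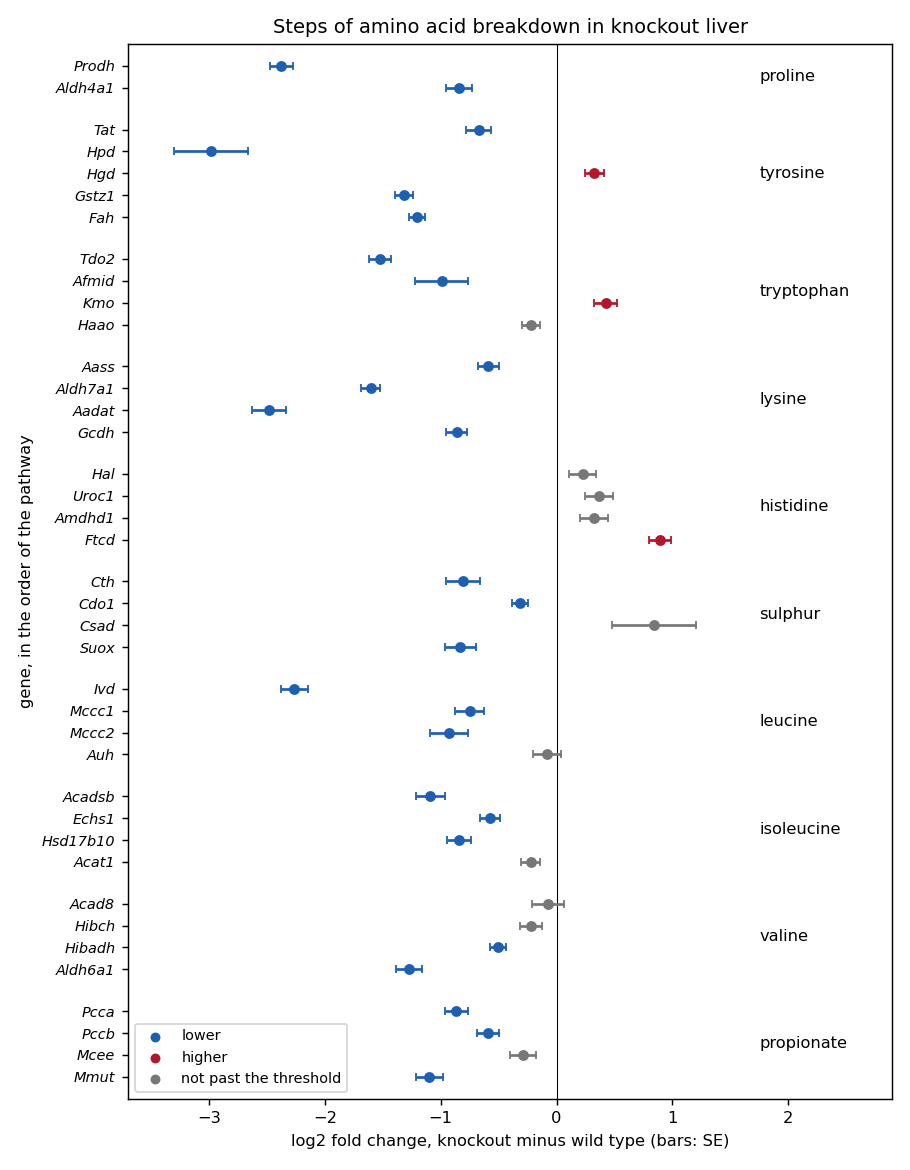
Log2 fold change (x axis, bars are the SE) of 39 enzymes of amino acid breakdown in knockout liver, grouped by pathway and listed in pathway order (y axis). Of these, 26 are lower, 3 (Hgd, Kmo and Ftcd) are higher and the rest did not pass the threshold.

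One-carbon and methionine metabolism borders on these routes. Of 28 tested members, 9 (32.1%) were lower and 2 (7.14%) higher, beside 5.24% and 4.86% of all genes tested. The higher count was 1 without WT 1, WT 2, WT 4, KO 5 or KO 6. With all 16 arrays in 1 fit 5 were lower and 1 higher. Sardh, given above, fell most. Gamt, which makes creatine, read 603, 560.5, 753 and 747 in wild type and 388, 523, 323 and 423 in knockout (log2 fold change -0.67, SE 0.14, limma adjusted p = 0.0102). Ahcy, which clears S-adenosylhomocysteine, read 6966, 6609.7, 6489.8 and 6419 and 5222, 4886, 5518 and 5124 (log2 fold change -0.35, SE 0.06, limma adjusted p = 0.0019). No array crossed between the groups in either gene. Gnmt, which uses up S-adenosylmethionine, and Bhmt, which remethylates homocysteine with betaine, had -0.18 and -0.054 and did not pass (adjusted p = 0.0581 and 0.6, limma).

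Transport genes for amino acids changed in both directions. Of 19 tested amino acid transporters, 4 (21.1%) were lower (2 without WT 2) and 3 (15.8%) higher, with a median of -0.05. All genes tested had 5.24% lower and 4.86% higher. With all 16 arrays in 1 fit, 0 of these transporters were higher and 2 lower. Beside Slc38a3, the betaine and GABA transporter gene Slc6a12 read 238, 216, 290.1 and 202 in wild type and 117, 139, 129 and 150.1 in knockout (log2 fold change -0.75, SE 0.13, limma adjusted p = 0.00229). Slc38a2, a neutral amino acid transporter, read 1387, 1206, 1046 and 968 and 856, 791, 475 and 721 (log2 fold change -0.70, SE 0.17, limma adjusted p = 0.0171), with KO 7 the dimmest, a call lost without WT 1 or WT 2. Slc25a44, the mitochondrial carrier for branched-chain amino acids, had a log2 fold change of -0.41, SE 0.11, and its call was lost without WT 2, WT 3, WT 4, KO 5, KO 7 or KO 8. The cationic amino acid transporter gene Slc7a2 was higher, at 344, 358, 325 and 315 in wild type and 509.6, 507, 579.7 and 481 in knockout (log2 fold change 0.61, SE 0.10, limma adjusted p = 0.00137). In the urea cycle list, 4 (40%) of 10 tested members were higher and 3 (30%) lower (1 higher and 1 lower with all 16 arrays in 1 fit). Asl, which releases arginine, read 2236, 2812, 2421 and 2122 in wild type and 4021, 3796, 4594 and 3509 in knockout (log2 fold change 0.73, SE 0.10, limma adjusted p = 0.000524), a rise beside the fall of Otc. Cps1, the step before Otc, had 0.13 (adjusted p = 0.161, limma), and Arg1, the last step, had 0.23 (adjusted p = 0.0558, limma), neither past the threshold.

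Genes for the handling of foreign compounds and endogenous toxins were more often lower than higher. Over 5 lists (cytochromes P450 in 2 lists, glutathione transferases, conjugation by glucuronate and sulfate, and dehydrogenases with esterases and monooxygenases), 123 distinct genes were tested, of which 46 (37.4%) were lower and 9 (7.32%) higher, with a median of -0.21. All genes tested had 5.24% lower and 4.86% higher. Of 17 tested Gst genes, 11 were lower and 2 higher. Gsta4, which conjugates lipid aldehydes, had signals of 571, 404, 513 and 354 in wild type and 123, 76.5, 59.8 and 64.5 in knockout (log2 fold change -2.32, SE 0.19, limma adjusted p = 8.94e-06). Gstm7 had 269.7, 179, 277 and 179 and 31.5, 29.1, 31.5 and 27.6 (log2 fold change -2.37, SE 0.16, limma adjusted p = 7.38e-07). Gstm6, close to it in sequence, had 357, 189.6, 269.7 and 226 and 68.5, 84.1, 75.5 and 59.4 (log2 fold change -1.63, SE 0.17, limma adjusted p = 5.24e-05). Gsta2, with 1015, 414, 1002 and 799 in wild type and 286, 184, 112 and 100.5 in knockout, varied more, with WT 2 the dimmest wild-type array (log2 fold change -2.17, SE 0.31, limma adjusted p = 0.000724). Gstp1, a transferase on the list of male-biased genes, went the other way, from 3866, 3524, 2956 and 3514 to 5385, 4475, 6572 and 5738 (log2 fold change 0.67, SE 0.11, limma adjusted p = 0.00187). Gclm, the modifier subunit of glutathione synthesis, was lower (-0.55, SE 0.08), while its catalytic partner Gclc had 0.41, SE 0.13 and did not pass (adjusted p = 0.0661, limma). Probe sets of Gst, Cyp2, Ces and Slc22 genes can take signal from related members, so the split between members of these families is uncertain.

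Of 30 tested genes of the CYP1 to CYP3 families, 11 (36.7%) were lower and 1 (3.33%) higher (median -0.21). Of 15 tested genes of other P450 families 7 (46.7%) were lower and 3 (20%) higher (median -0.46). The latter higher count was 1 without WT 2, WT 3, WT 4 or KO 7. With all 16 arrays in 1 fit, 6 and 4 were lower. Cyp2c37 read 5208, 4612, 4560 and 4671 in wild type and 2036, 1999, 2719 and 1574 in knockout (log2 fold change -1.21, SE 0.13, limma adjusted p = 5.75e-05). Cyp2d9 read 527, 568, 533 and 437 and 1047, 1749, 1786 and 1517 (log2 fold change 1.51, SE 0.15, limma adjusted p = 3.97e-05), a rise, and both pairs of groups lay apart. The omega-hydroxylase genes Cyp4f15 and Cyp4f14 were lower (-0.97, SE 0.11 and -0.85, SE 0.17), as was Cyp26a1, which clears retinoic acid (-1.38, SE 0.28). Cyp17a1, a steroid hydroxylase, and Cyp39a1, an oxysterol hydroxylase, were higher (1.52, SE 0.20 and 0.93, SE 0.25), the latter call lost without WT 2, WT 3, WT 4, KO 5 or KO 7. Nr1i3, the constitutive androstane receptor that controls several P450 genes, read 1092, 838, 1066 and 962 in wild type and 481, 416, 405 and 387 in knockout (log2 fold change -1.20, SE 0.11, limma adjusted p = 1.67e-05). No knockout array reached a wild-type array.

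Of 37 tested dehydrogenases, esterases and monooxygenases, 12 (32.4%) were lower and 3 (8.11%) higher (1 higher and 9 lower with all 16 arrays in 1 fit). The carboxylesterase genes Ces1d, Ces1f and Ces2a were lower (-1.26, SE 0.22, then -1.22, SE 0.22, then -0.91, SE 0.14). Ces1f read 3471, 2525, 3558 and 2448 in wild type and 1446, 1714, 712 and 1441 in knockout, with KO 7 the dimmest, as it was for Ces1d. Aldh1b1, a mitochondrial aldehyde dehydrogenase, was higher, at 184, 133, 209 and 171 in wild type and 473, 512, 374 and 323 in knockout (log2 fold change 1.19, SE 0.16, limma adjusted p = 0.000434). In sulfation, Papss2 was lower and Papss1, the other enzyme that makes the sulfate donor, had 0.25 (adjusted p = 0.417, limma) and did not pass. Ugt3a1 and Ugt3a2, members of a small transferase family, were lower (-0.97, SE 0.16 and -0.38, SE 0.08).

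Liver lobules are zoned, with some genes read mainly near the central vein and others near the portal tract. Of 38 tested genes listed as pericentral, 21 (55.3%) were lower, 2 (5.26%) higher and 15 did not pass, with a median of -0.45. All genes tested had 5.24% lower and 4.86% higher. With all 16 arrays in 1 fit, 9 pericentral genes were lower and 1 higher. The higher genes were Gstm3 and Lhpp, a phosphatase, whose call was lost without WT 2, WT 4, KO 6 or KO 8. Of 28 tested genes listed as periportal, 6 (21.4%) were lower, 6 (21.4%) higher and 16 did not pass, with a median of 0.13. Of the 21 lower pericentral genes, 9 were also among the foreign-compound genes above and 12 were not. Lgr5, a receptor of R-spondins that raises Wnt signalling, had signals of 189.7, 112, 116 and 115 in wild type and 51.4, 40.7, 64.9 and 70.1 in knockout (log2 fold change -1.03, SE 0.18, limma adjusted p = 0.00272). Glul, the glutamine synthetase of the innermost pericentral cells, had 3716, 3155, 3348 and 2798 and 2280.4, 2479.5, 2541 and 2172 (log2 fold change -0.45, SE 0.09, limma adjusted p = 0.00662). Rgn, or regucalcin, had 4971, 4561, 4599.6 and 4408 and 2032, 2544, 2224 and 2582 (log2 fold change -0.98, SE 0.08, limma adjusted p = 9.99e-06). The groups did not overlap for these 3 genes, and Gulo, of vitamin C synthesis, was lower as well (-0.76, SE 0.12). The Wnt targets Axin2 and Tbx3 had -0.25 and -0.38, and Rnf43 had -0.52, none past the threshold. Oat, Cyp1a2 and Aldh1a1 likewise did not pass (-0.03, -0.12 and -0.20). Among periportal genes, Pigr, the receptor that carries immunoglobulin A into bile, read 6301, 5411, 5308 and 4999.9 in wild type and 1849, 1773, 1870.3 and 1649.5 in knockout (log2 fold change -1.61, SE 0.08, limma adjusted p = 9.25e-08). Its knockout arrays lay close together, far below every wild-type array.

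**Figure D4:**
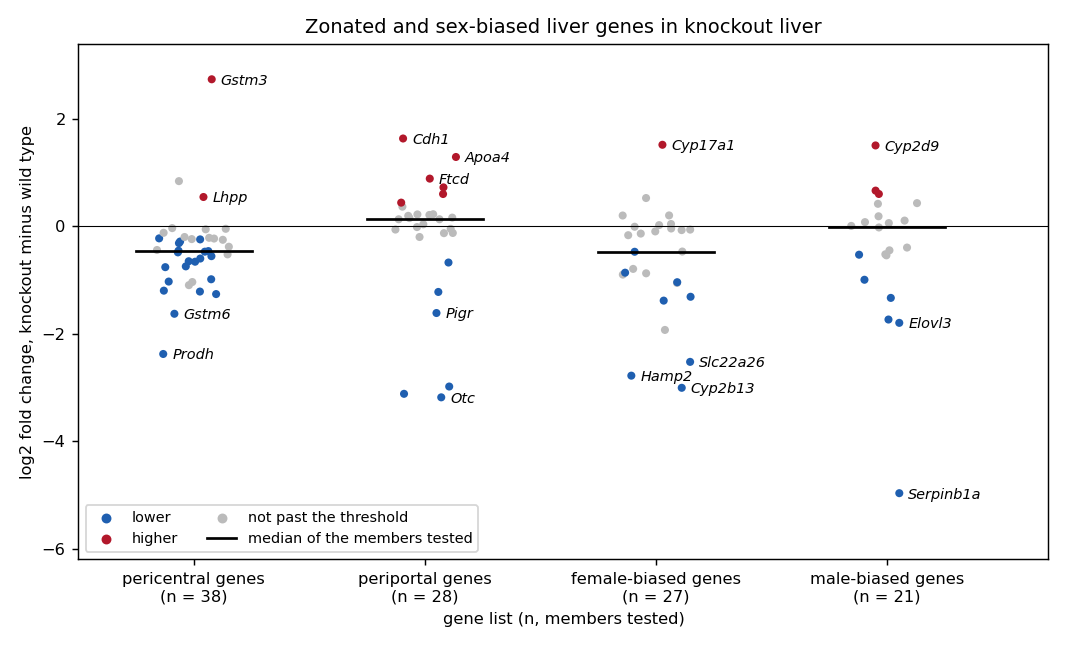
Log2 fold change (y axis) of the tested members of 4 gene lists in knockout liver (x axis), with the list median as a bar. Most of the 38 pericentral genes lie below 0 and 3 above it, while the 28 periportal genes lie on both sides, with Otc lowest and Cdh1 highest.

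Sex-biased liver genes were measured in females only. Of 27 tested genes listed as female-biased, 8 (29.6%) were lower and 1 (3.7%) higher (median -0.47). Of 21 listed as male-biased, 6 (28.6%) were lower and 3 (14.3%) higher (median -0.02). All genes tested had 5.24% lower and 4.86% higher, so the lower share was raised to a similar degree in both lists. In the male-biased list Serpinb1a (-4.97) was the lowest and Cyp2d9 (1.51) the highest, both given above. Cyp2b13, a P450 of the Cyp2b cluster, had signals of 2681, 1733, 3283 and 2374 in wild type and 265, 296, 198 and 459 in knockout (log2 fold change -3.01, SE 0.22, limma adjusted p = 2.86e-06). Slc22a26, an organic anion transporter, had 460.5, 607, 248 and 494 and 37.3, 55, 58.1 and 115 (log2 fold change -2.52, SE 0.28, limma adjusted p = 8.32e-05). Its relatives Slc22a27 and Slc22a29 were lower as well (-1.31, SE 0.29 and -1.75, SE 0.26), and for both of these the wild-type arrays split into WT 1 and WT 2 above and WT 3 and WT 4 below. Sult2a2, a hydroxysteroid sulfotransferase, had 4257, 4378, 3918 and 4404 in wild type and 2482, 1811, 147 and 2086 in knockout (log2 fold change -1.93, SE 0.65, limma adjusted p = 0.0837). The groups did not overlap, but KO 7 lay far below the other knockout arrays and the gene did not pass. The growth hormone pathway genes Ghr and Igf1 had -0.077 and 0.13 and did not pass, while Cish, a feedback inhibitor of that pathway, was higher (0.81, SE 0.20) with overlapping groups, a call lost without WT 1, WT 2, KO 5 or KO 7 and with all 16 arrays in 1 fit.

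Transporters of organic ions and nutrients were mixed, with 14 (26.9%) of 52 tested members lower and 4 (7.69%) higher (2 without KO 7). With all 16 arrays in 1 fit, 5 were lower and 2 higher. All genes tested had 5.24% lower and 4.86% higher. Slc22a18, an organic cation transporter of an imprinted region, had signals of 539, 487, 653 and 392 in wild type and 173, 155, 174 and 173 in knockout (log2 fold change -1.51, SE 0.14, limma adjusted p = 1.67e-05). Slc17a1, a sodium phosphate and urate carrier, had 138, 120.4, 139 and 109.5 and 57.1, 55, 31.4 and 62.2 (log2 fold change -1.10, SE 0.16, limma adjusted p = 0.000887). Slc27a1, a fatty acid transport protein, had 70.5, 77.1, 109.6 and 89.8 and 37.6, 28.5, 30.5 and 23.4 (log2 fold change -1.15, SE 0.16, limma adjusted p = 0.000486). No knockout array reached a wild-type array in these genes. Slc13a3, a dicarboxylate carrier, Slc19a2, a thiamine carrier, and Slc39a4, a zinc importer, were lower (-0.77, -0.67 and -0.67). Slco1a4, an organic anion carrier, and Slc17a3 were higher (0.99 and 0.49), the former not without KO 7. The glucose transporter Slc2a2 and the bile acid importer Slc10a1 had -0.069 and 0.037 and did not pass.

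Carbohydrate genes changed at entry, storage and later steps. Of 21 tested genes for glycolysis entry and glycogen, 6 (28.6%) were lower and 3 (14.3%) higher (1 without WT 2, WT 4, KO 6 or KO 7). The fit of all 16 arrays called 2 lower and 0 higher. In the gluconeogenesis list, 3 (21.4%) of 14 tested members were higher and 2 (14.3%) lower. The higher ones were enzymes shared with glycolysis or the TCA cycle, among them Mdh2, and the lower ones regulators, among them Sik1. No enzyme specific to gluconeogenesis was among the called members of this list. The fit of all 16 arrays called 0 members of the gluconeogenesis list higher and 1 lower. All genes tested had 4.86% higher and 5.24% lower. Khk, the ketohexokinase of fructose use, had signals of 2450.5, 2027, 2363 and 2209.7 in wild type and 1137, 1083, 724 and 984 in knockout (log2 fold change -1.21, SE 0.13, limma adjusted p = 5.44e-05). Pdk1, a kinase that shuts pyruvate dehydrogenase, had 448, 392, 478 and 459 and 165, 189, 94.4 and 149 (log2 fold change -1.51, SE 0.17, limma adjusted p = 7.68e-05). Pklr, the liver pyruvate kinase, had 124, 115, 127 and 91.3 and 80.6, 70.3, 49.1 and 51.4 (log2 fold change -0.74, SE 0.16, limma adjusted p = 0.00924). The groups lay apart for each, and KO 7 was the dimmest array for all 3. In glycogen metabolism, the phosphorylase gene Pygl, the branching enzyme gene Gbe1 and the mutase gene Pgm1 were lower (-0.43, SE 0.11, then -0.62, SE 0.13, then -0.39, SE 0.09), Pygl not without WT 1, WT 3, KO 7 or KO 8. The synthase gene Gys2 and the targeting subunit gene Ppp1r3c were higher (0.55, SE 0.16 and 1.22, SE 0.34), both with overlapping groups. The Ppp1r3c signals were 1078, 314, 345 and 250.5 in wild type and 737, 1001, 1265 and 1033 in knockout, so that WT 1 stood among the knockout arrays. The call was lost without WT 1, WT 2, WT 4, KO 5, KO 6 or KO 7 for Gys2 and without WT 2, WT 3, WT 4, KO 6, KO 7 or KO 8 for Ppp1r3c.

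In the TCA cycle, 5 (20%) of 25 tested members were higher and 4 (16%) lower, beside 4.86% and 5.24% of all genes tested. With all 16 arrays in 1 fit, 0 were higher and 2 lower, and the lost calls included Sdhb, Sdhd, Mdh2, Fh1 and Idh1. In the liver fit succinate dehydrogenase was split, since the subunit gene Sdhb fell from 2394, 2426, 2558 and 2398 to 1426, 1529.6, 1592 and 1407 (log2 fold change -0.71, SE 0.07, limma adjusted p = 3.83e-05), and the subunit gene Sdhd rose from 1463, 1562, 1589.6 and 1339.5 to 2245, 2107, 2529 and 2063 (log2 fold change 0.58, SE 0.09, limma adjusted p = 0.000971). Neither pair of groups overlapped. Mdh2, the mitochondrial malate dehydrogenase, and Fh1, the fumarase, were higher (0.84, SE 0.10 and 0.53, SE 0.07), and the isocitrate dehydrogenase genes Idh1 and Idh2 fell (-0.44, SE 0.07 and -0.85, SE 0.18). Of 62 tested nuclear-encoded respiratory chain genes, 6 (9.68%) were higher and 56 did not pass (median 0.09). The count was 3 without WT 1, WT 4, KO 6, KO 7 or KO 8, 17 after quantile normalization and 0 with all 16 arrays in 1 fit, where limma was used as well and 17 had an unadjusted p below 0.05 in the liver fit. The highest of these log2 fold changes was that of Uqcrc2, a core subunit of complex III (0.51, SE 0.09). Its 1 other bright probe set had the opposite sign (-0.013), and the call was lost when probe sets were averaged.

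Lipid genes moved in both directions. Of 22 tested genes of fatty acid and triglyceride synthesis, 6 (27.3%) were lower and 3 (13.6%) higher, beside 5.24% and 4.86% of all genes tested. Fasn, the fatty acid synthase, had signals of 266, 294, 329.8 and 377 in wild type and 121, 124, 128 and 130.4 in knockout (log2 fold change -1.22, SE 0.12, limma adjusted p = 2.51e-05). Srebf1, the regulator of that pathway, had 259, 308, 237 and 305 and 124, 124, 121 and 122 (log2 fold change -1.07, SE 0.11, limma adjusted p = 4.65e-05). Acacb, the acetyl-CoA carboxylase of the mitochondrial surface, went up, from 68.1, 71.2, 65.2 and 57.3 to 125, 107, 169.7 and 119 (log2 fold change 0.83, SE 0.14, limma adjusted p = 0.00217). The knockout arrays for Fasn and Srebf1 were nearly equal, and no array crossed between groups in the 3 genes. Elovl2, an elongase of polyunsaturated fatty acids, was higher (0.74, SE 0.13) and Elovl6, which elongates palmitate, lower (-0.73, SE 0.15). Thrsp, a lipogenic gene, read 265, 539.9, 1449 and 734 in wild type and 178, 407, 53 and 129 in knockout (log2 fold change -1.93, SE 0.51, limma adjusted p = 0.0319). Its groups overlapped, and the call was lost without WT 2, WT 3, WT 4, KO 5, KO 7 or KO 8. Of 21 tested cholesterol synthesis and uptake genes, 8 (38.1%) were lower and 13 did not pass (median -0.46). Hmgcs1, the synthase before the rate-limiting step, read 1811, 1552, 1342 and 1572 in wild type and 763, 741, 628 and 674 in knockout (log2 fold change -1.14, SE 0.10, limma adjusted p = 1.67e-05).

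Of 30 tested genes of fatty acid oxidation and ketogenesis, 5 (16.7%) were lower and 4 (13.3%) higher (0 higher and 1 lower with all 16 arrays in 1 fit). All genes tested had 5.24% lower and 4.86% higher. The 4 higher members had log2 fold changes of 0.28 to 0.43. The counts depended on single arrays, with 2 without WT 1, WT 2, WT 3, KO 6 or KO 8, 3 without KO 7 for the lower and 1 without KO 5, 2 without WT 1, WT 2, WT 4, KO 6 or KO 7 for the higher genes. Echs1, which serves both this pathway and isoleucine and valine breakdown, was lower (-0.58, SE 0.09), as were Angptl4, an inhibitor of lipoprotein lipase (-0.51, SE 0.15, a call lost without WT 1, WT 2, WT 3, WT 4, KO 6, KO 7 or KO 8), and Cyp4a14, a fatty acid omega-hydroxylase (-0.47, SE 0.09). In the separate list of lipid droplet and lipase genes, Fabp2, an intestinal-type fatty acid binding protein, had signals of 1742, 1748, 1987 and 1328 in wild type and 3244, 3098, 3396 and 2676 in knockout (log2 fold change 0.87, SE 0.12, limma adjusted p = 0.000403). Plin4, a lipid droplet coat protein, had 339, 241, 258 and 129.9 and 134, 66.4, 60.2 and 127 (log2 fold change -1.19, SE 0.27, limma adjusted p = 0.0151), the groups overlapping only between WT 4 and KO 5. Apoc2, the cofactor of lipoprotein lipase, was higher (0.62, SE 0.11), as were Mttp, which loads lipid onto apolipoprotein B, and Apom (0.43, SE 0.11 and 0.30, SE 0.09), whose calls were lost without WT 2, WT 3, WT 4, KO 5, KO 7 or KO 8 for Mttp and without WT 1, WT 3, WT 4, KO 5, KO 7 or KO 8 for Apom.

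Secreted plasma proteins changed in both directions. Of 28 tested members of that list 6 (21.4%) were lower (2 with all 16 arrays in 1 fit) and 3 (10.7%) higher (1 without WT 2 or WT 4). All genes tested had 5.24% lower and 4.86% higher. In the separate list of iron and hepcidin genes, 2 (11.1%) of 18 tested members were lower and 2 (11.1%) higher (0 to 1 higher with single arrays left out). Hamp2, a paralogue of the iron hormone hepcidin, had signals of 4965, 3929, 5137 and 3705 in wild type and 865, 345, 829 and 616 in knockout (log2 fold change -2.78, SE 0.23, limma adjusted p = 7.88e-06). Hamp, hepcidin itself, had -0.20 (adjusted p = 0.615, limma) and did not pass. Probe sets of these 2 related genes can share signal. Upstream of hepcidin, Bmp6 was higher (0.48, SE 0.13) and Bmp2 lower (-0.60, SE 0.15), and Id1, a target of their receptors, was higher (1.04, SE 0.29) with overlapping groups. The call was lost whichever array was left out for Bmp6, without WT 1, WT 3, KO 6 or KO 7 for Bmp2 and without WT 1, WT 3, WT 4, KO 5, KO 6 or KO 7 for Id1. In the complement list, 3 of 23 tested members were lower and 3 higher. C2, a classical pathway protease, had 455, 399, 380.2 and 444 in wild type and 142, 182, 156 and 217 in knockout (log2 fold change -1.21, SE 0.13, limma adjusted p = 6.26e-05). C9, of the membrane attack complex, had 2277, 2221, 2194 and 3023 and 802, 1126, 906 and 1723 (log2 fold change -1.13, SE 0.19, limma adjusted p = 0.00231). Both lay apart, with WT 4 and KO 8 the brightest arrays of their groups for C9. Masp1, of the lectin pathway, was higher (0.60, SE 0.10), but 1 of its 3 other bright probe sets had the opposite sign, and the call was lost when probe sets were averaged.

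In coagulation, F7, the factor that starts the extrinsic pathway, had signals of 897, 941, 939 and 1020 in wild type and 541, 579.6, 576 and 609.5 in knockout (log2 fold change -0.70, SE 0.08, limma adjusted p = 0.000164). F11 and F10 were higher (0.56, SE 0.14 and 0.39, SE 0.07), and the other 22 of 25 tested members did not pass. These shares of 4% lower and 8% higher were near the 5.24% and 4.86% of all genes tested. The call for F11 was lost without WT 1, WT 2, WT 3 or WT 4, and those of F10 and F11 with all 16 arrays in 1 fit. Lect2, a hepatokine, was lower, at 1483, 1439.8, 1808 and 1240.5 in wild type and 940.5, 1022, 939 and 860.1 in knockout (log2 fold change -0.65, SE 0.11, limma adjusted p = 0.00214). Of 15 tested serpins, 4 (26.7%) were lower, beside 5.24% of all genes tested, and 11 did not pass. Beside Serpinb1a and Serpina6 these were Serpina12, or vaspin (-1.33, SE 0.15), and Serping1, the C1 inhibitor (-0.29, SE 0.08), whose call was lost without WT 1, WT 2, WT 3, WT 4, KO 5, KO 6 or KO 7. Of 29 tested acute phase proteins, 0 passed in limma in either direction, 3 higher and 2 lower had an unadjusted p below 0.05, and the list median was -0.05. Without WT 4, 3 of them were higher, and without KO 8, 2 were lower.

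Among regulators, Cebpb, a factor of fasting metabolism, read 1641, 1629, 1732 and 1535 in wild type and 1059, 758, 639.8 and 965 in knockout (log2 fold change -0.95, SE 0.13, limma adjusted p = 0.000644). Klf10, another Kruppel-like factor, read 142, 276, 134 and 218 in wild type and 56.8, 67.2, 56.5 and 41.4 in knockout (log2 fold change -1.50, SE 0.20, limma adjusted p = 0.000466). Sik1, a kinase induced by cyclic AMP, read 72.9, 42.6, 61.4 and 50 and 20.3, 20.7, 23.4 and 14.7 (log2 fold change -1.01, SE 0.17, limma adjusted p = 0.00212), with a knockout mean below the filter signal. Groups did not overlap for these 3 genes. Of 30 tested nuclear receptors and cofactors 1 was lower (Nr1i3) and 1 higher, Esrra, a regulator of mitochondrial genes (0.50, SE 0.13), whose call was lost without WT 2, WT 4, KO 5 or KO 6 and with all 16 arrays in 1 fit. Each is a share of 3.33%, near the 5.24% lower and 4.86% higher of all genes tested. Hnf4a had -0.19 (adjusted p = 0.135, limma) and did not pass. Of 30 tested genes of insulin, growth hormone and fasting signalling, Cish passed, 29 did not, and the fasting hormone gene Fgf21 had 0.66 (adjusted p = 0.191, limma) and did not.

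Of 25 tested clock and output genes 7 (28%) were lower (4 without WT 2 or WT 3), beside 5.24% of all genes tested, and 18 did not pass. Per1, a core clock gene, had signals of 135, 135, 136 and 114 in wild type and 66.1, 45.4, 18 and 85.9 in knockout (log2 fold change -1.17, SE 0.26, limma adjusted p = 0.0127). Bhlhe40, a clock repressor, had 401, 581, 503 and 443 and 239, 309.7, 83.9 and 188 (log2 fold change -1.28, SE 0.28, limma adjusted p = 0.0109). Noct, a rhythmic phosphatase, had 784, 899, 1176 and 481 and 531, 404, 76.3 and 226 (log2 fold change -1.60, SE 0.44, limma adjusted p = 0.0368). KO 7 was the dimmest array in all 3 genes. The Noct groups overlapped, and its call was lost without WT 1, WT 2, WT 3 or KO 8. The core genes Arntl, Clock, Per2, Cry1 and Nr1d1 had -0.17, 0.18, 0.11, -0.23 and 0.36 and did not pass. The labels used here give no time of day for the samples.

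Imprinted and growth-linked genes included several rises. Meg3, an imprinted noncoding RNA of the Dlk1 region, had signals of 211, 115, 274 and 181 in wild type and 591, 861, 544 and 539.9 in knockout (log2 fold change 1.65, SE 0.22, limma adjusted p = 0.000344), and its 4 other bright probe sets had the same sign. Rian, a second noncoding RNA of that region, had 14, 18.3, 15.3 and 17.3 and 43.1, 47.3, 34.9 and 41 (log2 fold change 0.83, SE 0.15, limma adjusted p = 0.00369), with a wild-type mean below the filter signal. Peg3, an imprinted zinc finger gene, had 133, 101, 91.4 and 118 and 39, 19.5, 66.5 and 30.6 (log2 fold change -1.26, SE 0.22, limma adjusted p = 0.00256). The Meg3 and Rian groups lay apart upwards and the Peg3 groups downwards. In total, 3 (13.6%) of 22 tested imprinted genes were higher and 2 (9.09%) lower, beside 4.86% and 5.24% of all genes tested. Of 10 tested fetal liver and growth genes 5 (50%, beside 4.86% of all genes tested) were higher and 5 did not pass (median 0.43). Of the 22 measured members of this list, 12 were below the level tested. The higher genes were Gpc1, Cdh1 and Tubb2a, given above, the tetraspanin gene Cd9 (0.72, SE 0.13) and the keratin gene Krt18 (0.68, SE 0.10). Its keratin partner Krt8 had -0.25 and did not pass, and Afp, Gpc3 and Dlk1, the usual fetal markers, were below the level tested. The fetal list was chosen with earlier results of these data known, and Gpc1, Cdh1 and Tubb2a were among the largest rises. The share of this list is therefore a description, and whether fetal genes rose as a set was not tested. Tk1, a thymidine kinase of dividing cells, was lower, at 62.9, 122, 52 and 56.4 in wild type and 4.8, 25.3, 8.7 and 7.9 in knockout (log2 fold change -1.68, SE 0.26, limma adjusted p = 0.00118).

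Lists of cell machinery held few large changes. Of 43 tested cytosolic ribosomal protein genes 0 passed in limma, and 2 higher and 0 lower had an unadjusted p below 0.05. Of 55 tested genes of protein folding and secretion in the endoplasmic reticulum 7 (12.7%, beside 4.86% of all genes tested) were higher and 48 did not pass (median 0.13). This count was 1 without KO 5, 2 without KO 8, 3 without WT 2 or WT 3, 4 without WT 1 or WT 4, 17 without KO 6, and 2 with all 16 arrays in 1 fit. Of 39 lysosome and autophagy genes 6 (15.4%) were higher and 2 (5.13%) lower (2 higher and 1 lower with all 16 arrays in 1 fit). The lower share was near the 5.24% of all genes tested. The lower genes included Ctsl, a cysteine protease, at 4232, 3699, 3963 and 3969.9 in wild type and 2532, 2372, 2615 and 2470.5 in knockout (log2 fold change -0.66, SE 0.07, limma adjusted p = 3.8e-05). Selenbp1, a selenium-binding methanethiol oxidase, was lower, at 1784, 2276, 1831 and 1784 and 633, 805, 638 and 621 (log2 fold change -1.49, SE 0.11, limma adjusted p = 2.64e-06). The groups did not overlap for Ctsl and Selenbp1.

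**Figure D5:**
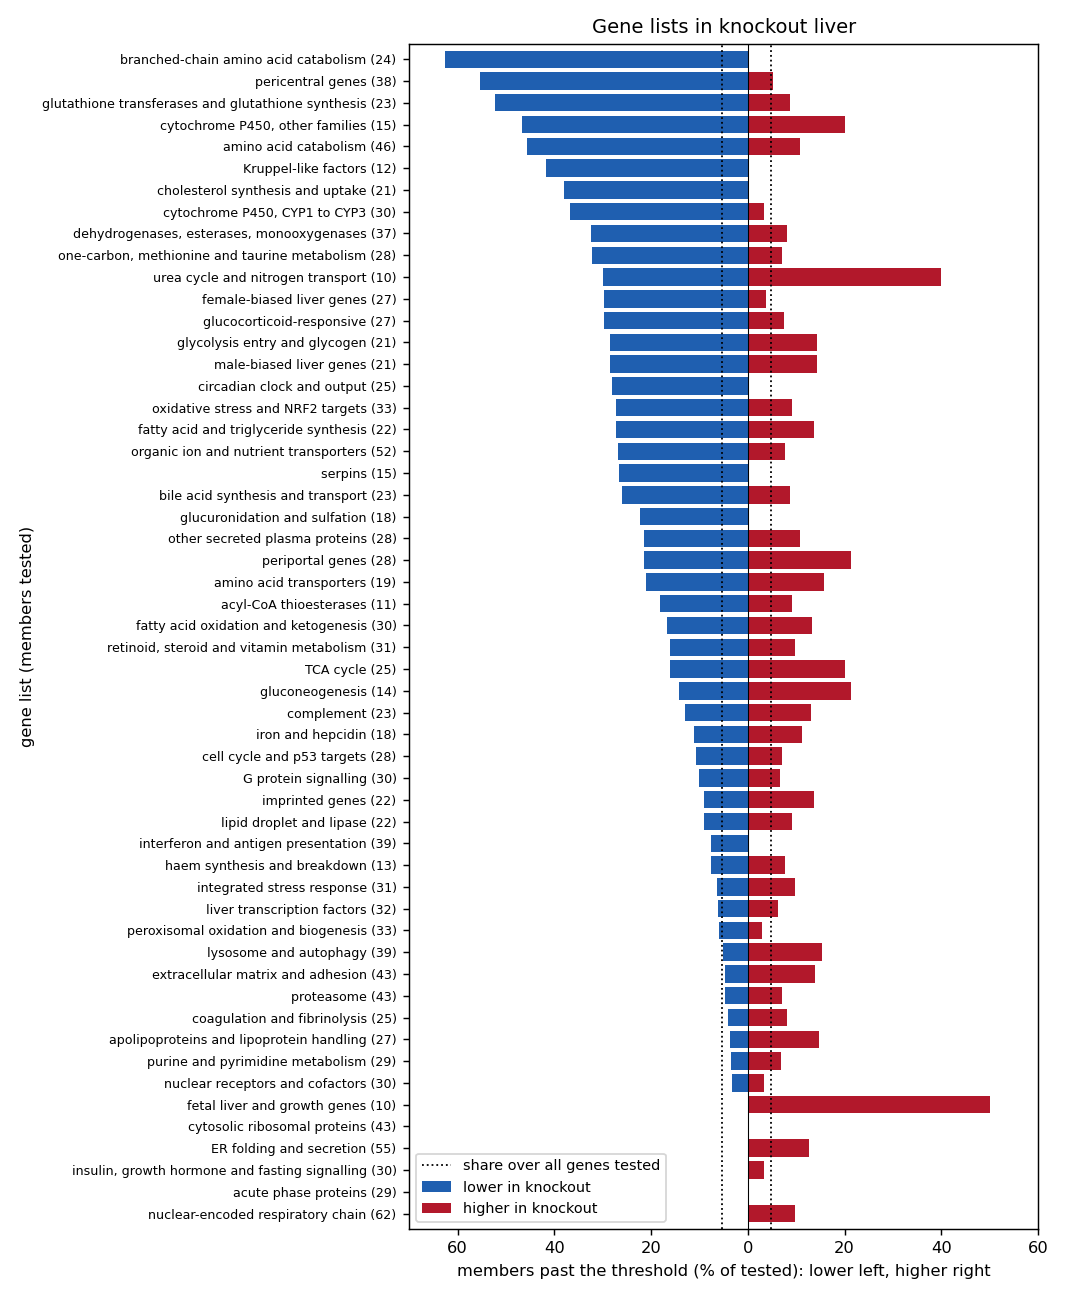
Share of tested members (x axis, percent) lower (left) and higher (right) in knockout liver for the gene lists with at least 10 members tested (y axis, number tested in brackets), with dotted lines at the shares over all genes tested, 5.24% lower and 4.86% higher. The branched-chain, pericentral and glutathione transferase lists have the longest bars to the left, and the fetal and urea cycle lists the longest to the right, of which the urea cycle list has 1 higher gene with all 16 arrays in 1 fit. The lists were chosen with earlier results of these data known, and the fetal list includes some of the largest rises.

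Markers of other cell types in liver were read to see which lists moved with genotype. In whole tissue, fewer cells of a type and less RNA per cell cannot be told apart. Of 15 tested Kupffer cell and macrophage markers 1 (6.67%) was higher, near the 4.86% of all genes tested. This was Marco, a scavenger receptor, at 65.2, 87.1, 15.6 and 65.4 in wild type and 149.9, 289, 360.1 and 75.1 in knockout (log2 fold change 1.58, SE 0.42, limma adjusted p = 0.0326). For Marco KO 8 overlapped wild type, and the call was lost without WT 1, WT 3, WT 4, KO 6 or KO 7. The defining Kupffer marker Clec4f had 0.088 (adjusted p = 0.797, limma), and the summed macrophage signal was 6635 to 10182 in wild type and 7507 to 12413 in knockout. Of 15 endothelial markers 1 (6.67%) was likewise higher, Kdr, the VEGF receptor (0.49, SE 0.13). The call for Kdr was lost without WT 2, WT 3, KO 5 or KO 6 and with all 16 arrays in 1 fit. Stab2, a scavenger receptor of sinusoids, had -0.061 and did not pass. Of 11 tested stellate cell markers, 0 passed in limma, 1 higher and 1 lower had an unadjusted p below 0.05, and Dcn, or decorin, had 0.26. The biliary markers Krt19, Epcam and Sox9 were below the level tested, and Tm4sf4 was higher (0.39, SE 0.11), a call lost without WT 1, WT 2, WT 3, WT 4, KO 5 or KO 7. Neutrophil markers summed to 274 to 663 in wild type and 399 to 1262 in knockout, with 0 of 5 past the threshold in limma, 1 higher and 0 lower at an unadjusted p below 0.05, and S100a8 at 0.85 (adjusted p = 0.35, limma). Log2 fold changes were positive for 13 of 15 macrophage, 10 of 15 endothelial, 6 of 11 stellate cell and 5 of 5 neutrophil markers tested. The median over all genes tested was 0.03. The part of these cells in the results above was not tested.

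The genes beside Klf15 on its chromosome were read because a deletion or flanking sequence can act on neighbours. On one side lay Vmn1r54, which was below the level tested, Uroc1 (0.37, adjusted p = 0.0723, limma) and Zxdc (-0.26, adjusted p = 0.263, limma). Across Klf15 came Aldh1l1, a folate dehydrogenase, then Slc41a3 (0.26) and Iqsec1 (-0.22). Of the 5 tested neighbours 1 passed, beside 10.1% of all genes tested, and 5 genes are too few to compare with that share. This was Aldh1l1, the nearest on its side, at 3421, 3180.2, 3799 and 3161 in wild type and 2152, 2166, 2229 and 2465 in knockout (log2 fold change -0.58, SE 0.08, limma adjusted p = 0.000442). None of its knockout signals reached the lowest wild-type one, and whether its position bears on this was not tested.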

How the data were processed

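Liver RNA of 4 wild-type and 4 knockout samples was analysed. The values deposited by the authors are array intensity, 1 signal for each probe set, and GCOS is the tool named, per the submitters' processing notes. Version, summary method, scaling and detection calls: not given in the sources used here. Gene names came from the platform annotation, updated through RefSeq (12369 of 12393 genes matched). Of 22690 probe sets, 64 controls were left out, and 20380 had 1 symbol, 691 several and 1555 none. The brightest probe set over all 16 arrays stood for a gene. Array medians differed by less than 1.5 times, so values were not rescaled.

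Values were tested as log2(signal + 16) with limma 3.58.1 (trend, R 4.3.3) on the 8 liver arrays. A gene was tested where its mean log2 value over the 8 arrays reached the 40th percentile of probe sets, a signal of 24.0, and was called at a Benjamini-Hochberg adjusted p below 0.05. The procedure was tested on simulated data. Python 3.11.15, pandas 2.3.3 and matplotlib 3.10.9 served for counts and figures. Text genes were the 30 largest rises and 30 largest falls whose groups do not overlap, called list members, neighbours of Klf15, and list members not past the threshold given for contrast, which were chosen after their values were seen. The groups, lists and named genes were chosen with earlier results of these data known. Alternatives varied the pseudocount, filter, scaling, variance trend, probe set rule, the fluidics module, the arrays fitted and each array left out.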

Additional observations from a re-analysis of the deposited data

Results flagged for a closer look

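For each gene named in the report, the highest or lowest of the 4 arrays of a genotype was set against the other 3. Of 470 groups of 4, 28 held an array whose gap to the nearest other array took up more of the group's whole range than Dixon's test allows at the 95% level, and chance gives about 1 in 20 such groups. Among knockout arrays standing above the rest were Aadat at 215 on KO 5 against 128 to 136, Afmid at 42.6 on KO 6 against 16.2 to 16.8, and Atp1b1 at 878 on KO 8 against 783 to 798. Others in this direction were Bckdhb at 561 on KO 8 against 481 to 492, Dcn at 2124 on KO 7 against 1510.2 to 1584, and Krt8 at 959.8 on KO 8 against 723 to 735. Further ones were Selenbp1 at 805 on KO 6 against 621 to 638. Among knockout arrays standing below the rest were Clock at 114 on KO 6 against 169 to 169.9, Fh1 at 3460 on KO 5 against 3717 to 3771, and Gstk1 at 342 on KO 5 against 470 to 481. Others in this direction were Gys2 at 736 on KO 8 against 1203 to 1251, Hamp at 3181 on KO 6 against 5761 to 6092, and Igf1 at 3499 on KO 6 against 3671 to 3704. Further ones were Mmd2 at 318 on KO 7 against 521 to 539, Slc22a18 at 155 on KO 6 against 173 to 174, and Sult2a2 at 147 on KO 7 against 1811 to 2482. Among wild-type arrays standing above the rest were Arntl at 147 on WT 1 against 42.1 to 52, C9 at 3023 on WT 4 against 2194 to 2277, and Cdkn1a at 276 on WT 1 against 118 to 136. Others in this direction were Gclc at 2449 on WT 1 against 1583 to 1672, Lgr5 at 189.7 on WT 1 against 112 to 116, and Selenbp1 at 2276 on WT 2 against 1784 to 1831. Further ones were Slc17a3 at 758 on WT 3 against 570.5 to 589, and Uroc1 at 232 on WT 3 against 213 to 214. Among wild-type arrays standing below the rest were Aldh4a1 at 598 on WT 4 against 666 to 678, Cps1 at 6607 on WT 3 against 6875 to 6903, and Per1 at 114 on WT 4 against 135 to 136. Others in this direction were Tat at 3868 on WT 4 against 5052 to 5231. The genes Arntl, Clock, Cps1, Dcn, Gclc, Hamp, Igf1, Krt8, Sult2a2, and Uroc1 were not past the threshold in limma, and the others passed with these arrays included.

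Probe sets without a gene symbol were outside the comparisons above. Of 629 such probe sets tested, 27 were higher and 32 lower in knockout liver by limma at an adjusted p below 0.05, together 9.38%, near the share of named genes.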

How the results depend on the processing

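The liver fit called 807 genes, 388 higher and 419 lower, and 142 at 2-fold or more. With single arrays left out it called 576 to 753 genes in total, 236 to 366 higher, 322 to 423 lower, and 135 to 160 at 2-fold or more. With all 16 arrays in 1 fit, where quadriceps shares the estimate of spread, 328 genes were called, 110 higher and 218 lower, and 326 of the 328 were among the 807 with the same sign. A pseudocount of 64 left 90 genes at 2-fold or more. Quantile normalization called 1033 genes, median centring 931 and no filter 633, and every gene called both there and in the liver fit kept its sign.

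Over the 20 settings 307 genes that passed were followed, a wider set than the genes given in this report. Of these, 156 passed in all settings they were tested in, and 0 changed sign. The genes of the report that did not pass in the fit of all 16 arrays were Ahcy, Aldh1l1, Angptl4, Apoc2, Apom, Bmp6, Cdkn1a, Cdo1, Cish, Ctsl, Cyp2e1, Cyp4a14, Elovl6, Esrra, F10, F11, Fh1, Gbe1, Gclm, Glul, Gstp1, Gys2, Hgd, Hibadh, Idh1, Kdr, Kmo, Krt18, Lhpp, Mdh2, Mttp, Pgm1, Pklr, Ppp1r3c, Pygl, Sdhb, Sdhd, Serping1, Slc13a3, Slc19a2, Slc25a44, Slc38a2, Slc39a4, Slc7a2, Slco1a4, Tm4sf4, Ugt3a2, and Uqcrc2. The report gives the calls that were lost without single arrays, and the cause of these losses was not tested. Npnt and Angptl4 did not pass with a pseudocount of 1. With all probe sets of a gene averaged, Angptl4, Apom, Gys2, Id1, Masp1, Mmab, Mttp, Npnt, Serping1, Slc13a3, Slc25a44, Thrsp, and Uqcrc2 did not pass.

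No paired analysis was possible because the liver wild-type samples are numbered 1 to 4 and the knockout samples 5 to 8, so the groups share no number. Liver and quadriceps samples of the same number could be joined in the fit of all 16 arrays: with this replicate block 333 genes were called, 112 higher and 221 lower. For each sample, the deviations of its genes from their group means were taken. Between same-numbered liver and quadriceps samples these deviations had correlations of -0.0904 to 0.0577, so the numbers were not taken to pair samples. Scan day as a block was not run, since all liver arrays were scanned on 1 day. Fluidics modules were numbered 1 to 4 on each of the 2 stations, so arrays of the 2 genotypes with the same module number were washed on different stations. With the module number as a block 768 genes were called, and this block cannot separate genotype from station. Deviations of arrays with the same module number had correlations of -0.124 to 0.151 between wild type and knockout. Signal near background limits the folds of genes whose group mean lay below 24.0.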
